A study of Mus musculus with 28 samples.

Results

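The comparison described here was that of ear skin given the HSP90 inhibitor RGRN-305 alone with ear skin given vehicle alone, in the absence of any inflammatory stimulus. It rested on 8 of the 28 RNA-sequencing libraries, chosen by their labelled treatment: 4 mice of the vehicle group (Vehicle 1 to 4) and 4 mice of the RGRN-305 group (RGRN-305 1 to 4). All mice were female C57BL/6J aged 6 to 8 weeks. Vehicle mice received acetone on the ear and, in place of the challenge, acetone again. RGRN-305 mice received about 1 mg of RGRN-305 per ear in acetone, followed by acetone in place of the challenge. Ear tissue was taken 4 hours after the second application. The other 20 libraries came from mice challenged with 2.5 µg of the phorbol ester TPA (12-O-tetradecanoylphorbol-13-acetate) per ear, 10 without the inhibitor (TPA) and 10 with it (TPA+RGRN-305), and were used here to estimate the spread between mice and to set the RGRN-305 effect without TPA beside that with TPA. The mice came from 2 independent experiments, and the sources used here do not say which mouse belonged to which, so experiment and treatment could not be separated.

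HSP90 is an abundant chaperone that uses ATP to fold and hold a set of client proteins, among them many kinases and steroid receptors. In resting cells it also holds the transcription factor HSF1 inactive, and inhibitors that occupy its N-terminal ATP pocket, as RGRN-305 does, are known to release HSF1, which switches on genes for HSP70, HSP40 and HSP90 itself. In skin, keratinocytes answer irritation and wounding with ligands of the epidermal growth factor receptor (EGFR), AP-1 transcription factors, and the cornified envelope protein and keratin genes of activated epidermis.

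Total counts were between 16751780 and 20240796 in the vehicle libraries and between 18280469 and 21829979 in the RGRN-305 libraries. Values below are normalized counts, that is counts scaled to the same effective library size. Keratinocyte, fibroblast and skeletal muscle markers were abundant in all 8 libraries (summed levels of 30585 to 37505, 5754 to 8810 and 5970 to 10783 CPM, counts scaled by library size), and neutrophil markers were near the floor at 6.02 to 12.9 in vehicle mice and 6.41 to 14.3 in RGRN-305 mice. In a principal component analysis of the 500 most variable genes, RGRN-305 1 stood apart on the first component (score 26.7, the other 7 between -8.88 and 0.024). That library also had the lowest share of long non-coding RNA counts (0.562%, the others 0.730% to 0.913%) and the fewest genes with a count (24522, the others 25412 to 26181). RGRN-305 3 and 4 stood apart on the second component (11.3 and 20.9, the others -7.16 to -3.64), which was led by hair shaft and inner root sheath keratins. The inner root sheath keratin gene Krt71 was at 129.8 and 281.8 in these mice and at 0 to 4.35 in the other 6. Vehicle 3 had far more of the immediate early transcript Fos (10544) than Vehicle 1, 2 and 4 (279, 348 and 1155) or the RGRN-305 mice (722 to 1792). The group means did not differ on either component past 0.05 (exact two-sided permutation of the 4 against 4 labels, p = 0.0571 and 0.229, adjusted over both 0.114 and 0.229, smallest p possible 0.0286). The part of these library features in the values below was not tested beyond leaving the libraries out.

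**Figure D1:**
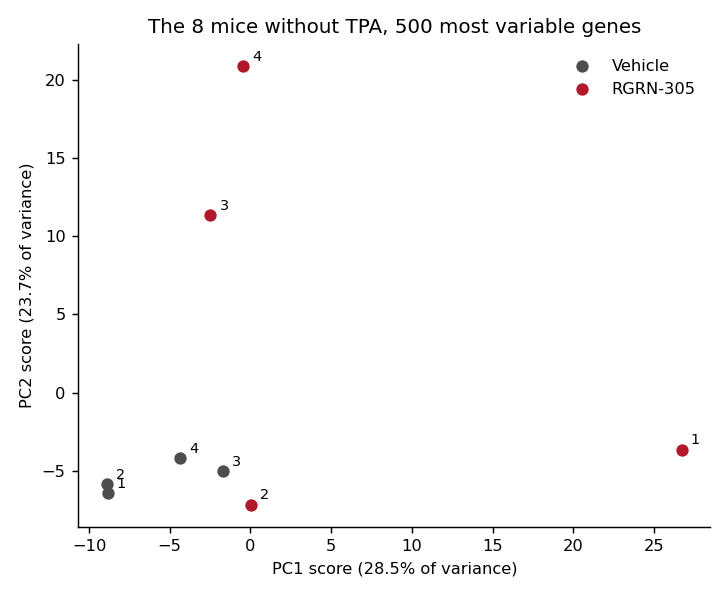
Scores of the 8 libraries on the first and second principal component (28.5% and 23.7% of the variance, arbitrary units) of the 500 most variable genes, with points numbered by mouse. RGRN-305 1 lies alone on the first component at 26.7 and RGRN-305 3 and 4 lie apart on the second at 11.3 and 20.9, while RGRN-305 2 lies beside the vehicle mice.

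RGRN-305 alone left no gene past an adjusted p of 0.05 by the main test. Of 18991 genes tested, 0 passed (0%) by edgeR's quasi-likelihood test with Benjamini-Hochberg adjustment, where the smallest adjusted p was 0.273, and 0 passed with limma-voom. At an unadjusted p under 0.05, 1810 genes (9.53%) differed, 793 (4.18%) higher and 1017 (5.36%) lower in RGRN-305 mice, and this split turned with the scaling, to 1047 higher and 832 lower with median-ratio size factors and to 583 higher and 1311 lower with library totals alone. All 4 RGRN-305 mice lay above all 4 vehicle mice for 451 genes (2.37%) and below them for 533 (2.81%). DESeq2's Wald test on the same 28 libraries called 19 of 20658 genes (0.092%), 14 higher and 5 lower, and 4 of these (Rpl27-ps1, Tnfrsf9, Fosl1 and Epgn) also cleared the fold (log2 of 1) and level (mean count of 50) limits for a differentially expressed gene. The measurements were precise enough to limit large effects: for 13931 of the 14233 genes with a mean count above 50 (97.9%), the 95% interval of the log2 fold change lay within -1 and 1, with a median half-width of 0.22. Since no gene passed the main test, the groups below are described by values and counts, to be read against these shares. With so few genes per list, leaving out 1 mouse moved many of the counts, and such mice are named with the list.

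Of the 4 HSP90 family genes, Hsp90aa1 lay above every vehicle mouse in all treated mice, Trap1 lay below, and the others overlapped. Over all genes, 2.37% lay above and 2.81% below. Both separations turned with the scaling: with library totals alone 0 of the 4 lay above, and with median-ratio size factors 0 lay below. Hsp90aa1, which encodes the inducible cytosolic HSP90α (chr12:110656842-110669166, minus strand, GRCm39), was at 913, 1019, 1008 and 1011 normalized counts in Vehicle 1 to 4 and at 1537, 1260, 1030 and 1058 in RGRN-305 1 to 4. The groups did not overlap, but RGRN-305 3 and 4 lay just above the highest vehicle mouse and RGRN-305 1 and 2 well above it. The log2 fold change was 0.31 ± 0.11 (SE, n = 4 per group, edgeR adjusted p = 0.430). Hsp90ab1, the constitutive HSP90β gene, was at 25855 to 27219 in vehicle mice and 26634 to 29143 in RGRN-305 mice, which overlapped (log2 fold change 0.07, 95% interval -0.06 to 0.19). Hsp90b1, the endoplasmic reticulum form GRP94, also overlapped (-0.02, -0.18 to 0.13). Trap1, the mitochondrial form, was lower in every RGRN-305 mouse (1230 to 1282) than in any vehicle mouse (1292 to 1403), with a log2 fold change of -0.10 ± 0.06 (edgeR adjusted p = 0.595).

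Transcripts of the HSF1 heat shock response lay higher as a group, by small amounts. Of 30 listed genes, all tested, 7 were higher and 0 lower at an unadjusted p under 0.05 (all genes: 4.18% higher and 5.36% lower). All RGRN-305 mice exceeded all vehicle mice for 9 of them and lay below for 0, against 2.37% and 2.81% of all genes. The median log2 fold change of the list was 0.13 (all genes: -0.01), 25 of its 30 members were above 0, and its summed level was 5127 to 5436 CPM in vehicle mice and 5481 to 5875 in RGRN-305 mice. Leaving out RGRN-305 1 gave 5 higher, 0 lower and a median of 0.10, leaving out RGRN-305 3 gave 11, 0 and 0.18, and leaving out RGRN-305 1 and Vehicle 3 together gave 6, 0 and 0.08. The scaling also moved these counts. With library totals alone 7 were higher and 0 lower, 5 lay above every vehicle mouse, 22 were above 0 and the median was 0.10. The 9 members without overlap by the main scaling included the HSP70 genes Hspa8, Hspa1a, Hspa1b and Hspa4 and the HSP40 co-chaperone genes Dnaja1, Dnajb1 and Dnajb4. The others were Hsp90aa1 and Fkbp4, which encodes an immunophilin that binds HSP90.

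Hspa8, the constitutive HSP70 gene (HSC70), had the smallest p of the list. It was at 4349, 4818, 5043 and 4644 normalized counts in Vehicle 1 to 4 and at 7496, 6024, 5688 and 6283 in RGRN-305 1 to 4. Every RGRN-305 mouse was above the highest vehicle mouse, RGRN-305 1 by most, and the log2 fold change was 0.43 ± 0.10 (edgeR adjusted p = 0.273, DESeq2 adjusted p = 0.0360). Hspa1b, an inducible HSP70 gene, was at 6892, 7490, 7454 and 6131 in Vehicle 1 to 4 and at 9979, 9104, 7921 and 8895 in RGRN-305 1 to 4. Hspa1a, its neighbour with a nearly identical coding sequence, was at 2184, 2577, 2605 and 1990 in Vehicle 1 to 4 and at 3154, 3334, 2716 and 2776 in RGRN-305 1 to 4. Neither gene's groups overlapped, and their log2 fold changes were alike at 0.36 ± 0.09 for both (edgeR adjusted p = 0.390 for Hspa1b and 0.395 for Hspa1a, DESeq2 0.0486 and 0.113). Only uniquely aligned, unambiguous reads had been counted, so reads that fitted both copies equally entered neither count, and each level rests on the reads that tell them apart.

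Dnaja1, an HSP40 that delivers substrates to HSP70, was at 505, 511, 540 and 487 in Vehicle 1 to 4 and at 739, 583, 569 and 691 in RGRN-305 1 to 4. Dnajb1, the HSP40 most closely tied to HSF1, was at 1795, 1852, 2107 and 1813 in Vehicle 1 to 4 and at 2730, 2396, 2128 and 2146 in RGRN-305 1 to 4. Both had no overlap, though for Dnajb1 the RGRN-305 3 value was next to that of Vehicle 3, and their log2 fold changes were 0.34 ± 0.10 and 0.31 ± 0.11 (edgeR adjusted p = 0.406 and 0.416). Hspa4 (0.17 ± 0.08), Dnajb4 (0.17 ± 0.12) and Fkbp4 (0.14 ± 0.07) had smaller log2 fold changes. For these 3 genes every RGRN-305 mouse exceeded every vehicle mouse by a narrow gap.

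Stretches upstream of Hspa1a, Hspa1b, Dnaja1 and Fkbp4 are shown because HSF1 binds paired, inverted GAA units. They were chosen as the list genes that both held the motif below and had groups without overlap. In RefSeq promoters (GRCm38.p6, 24 of the 30 listed genes matched), the motif GAANNTTC, which reads the same on both strands, was searched in the 250 bases before the start. It was present for 7 of the 24 matched genes (Hspa1a, Hspa1b, Dnaja1, Hspb1, Hspd1, Hspe1 and Fkbp4) and for 7.73% of all 27025 gene symbols in the table. Hspb1, Hspd1 and Hspe1 held it although their groups overlapped. Of the genes without overlap, Hspa4, Dnajb1 and Dnajb4 lacked it, and Hspa8 and Hsp90aa1 had no promoter entry. The 250 bases of Hspa1a and Hspa1b were identical at 247 positions. Capitals mark the motif in each 60-base window, taken from chr17:34972227-34972286 (minus strand) for Hspa1a, chr17:34959309-34959368 (minus) for Hspa1b, chr4:40722318-40722377 (plus) for Dnaja1 and chr6:128438774-128438833 (minus) for Fkbp4, with the motif starting 104, 104, 124 and 151 bases before the start. A match of letters is a description and not evidence that the site was bound.
Hspa1a: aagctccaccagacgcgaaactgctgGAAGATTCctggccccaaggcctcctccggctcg
Hspa1b: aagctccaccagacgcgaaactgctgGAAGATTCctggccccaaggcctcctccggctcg
Dnaja1: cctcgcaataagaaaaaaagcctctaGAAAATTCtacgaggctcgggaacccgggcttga
Fkbp4: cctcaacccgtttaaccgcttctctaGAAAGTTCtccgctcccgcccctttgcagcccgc

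**Figure D2:**
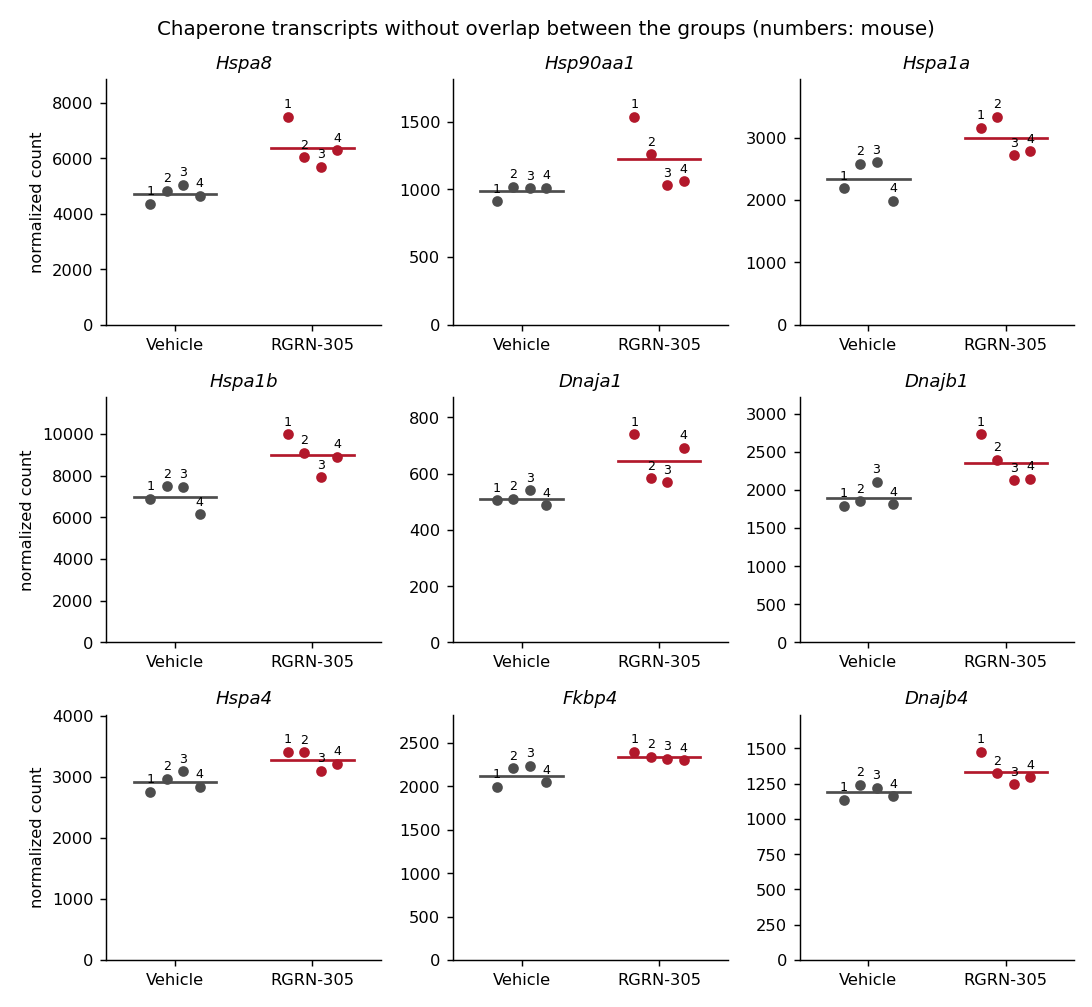
Normalized counts (linear axis from 0) of the 9 heat shock list genes whose groups did not overlap, drawn for that reason, in each vehicle and RGRN-305 mouse, with horizontal lines at the group means and points numbered by mouse. RGRN-305 1 was the highest mouse for 8 of the 9 genes, Hspa1a being the exception, and the gap between the groups was narrow for Hspa4, Fkbp4 and Dnajb4.

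Co-chaperones and clients of HSP90 showed no such shift. Of 27 co-chaperone genes, 0 were higher and 0 lower at an unadjusted p under 0.05, 1 (Fkbp4) was above every vehicle mouse, and the median log2 fold change was -0.02. Of 35 client kinase and receptor genes, 1 was higher and 2 were lower, 3 lay above and 2 below every vehicle mouse, and the median was -0.01. Without RGRN-305 2 the count of lower clients was 4, and without Vehicle 3 there were 2 higher and 1 lower co-chaperones. Araf, a RAF kinase gene upstream of ERK, had the smallest p of the clients, at 2301, 2326, 2089 and 2220 in Vehicle 1 to 4 and at 1379, 2012, 2133 and 1982 in RGRN-305 1 to 4. RGRN-305 3 lay within the vehicle range and RGRN-305 1 far below the other mice, and the log2 fold change was -0.25 ± 0.08 (edgeR adjusted p = 0.406).

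The EGFR ligand genes Epgn, Ereg and Hbegf and the AP-1 gene Fosl1 lay above every vehicle mouse in 3 of the 4 treated mice. Of 15 genes for EGFR ligands, receptors and their sheddase, 3 (Epgn, Ereg and Hbegf) were higher and 0 lower at an unadjusted p under 0.05. The shares over all genes were 4.18% and 5.36%. Of the 15, 0 were without overlap and 10 had a log2 fold change above 0 (all genes: 48.5%), with a median of 0.11. Epgn, which encodes the ligand epigen (chr5:91175323-91183074, plus strand, GRCm39), was at 7.26, 11.96, 30.3 and 14.5 normalized counts in Vehicle 1 to 4 and at 86.3, 125.5, 23.4 and 76.1 in RGRN-305 1 to 4. RGRN-305 1, 2 and 4 were above every vehicle mouse, while RGRN-305 3 lay below Vehicle 3. The log2 fold change was 2.23 ± 0.58 (edgeR adjusted p = 0.395, DESeq2 0.00704). Ereg, the epiregulin gene, was at 2394, 1968, 2672 and 1595 in Vehicle 1 to 4 and at 3868, 4662, 2138 and 3250 in RGRN-305 1 to 4. Hbegf, which encodes the heparin-binding ligand, was at 163, 202, 298 and 159 in Vehicle 1 to 4 and at 443, 586, 210.3 and 371 in RGRN-305 1 to 4. Both repeated the arrangement of Epgn, with RGRN-305 3 inside the vehicle range, and their log2 fold changes were 0.69 ± 0.20 and 0.96 ± 0.31 (edgeR adjusted p = 0.406 for both).

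Among 13 AP-1 subunit genes 1 was higher and 0 were lower at an unadjusted p under 0.05 (all genes: 4.18% and 5.36%), with a median of 0.12. Without Vehicle 3 these became 4 higher and a median of 0.30, and without Vehicle 4 the median was 0.04. Fosl1, which encodes the AP-1 subunit FRA1 (chr19:5497575-5505974, plus strand, GRCm39), was at 80.9, 112, 268 and 71.8 in Vehicle 1 to 4 and at 549, 926, 155 and 399 in RGRN-305 1 to 4. The log2 fold change was 1.92 ± 0.43 (edgeR adjusted p = 0.273, DESeq2 0.0450), with RGRN-305 3 again below Vehicle 3. Without RGRN-305 3 and 4, the libraries with hair follicle transcripts, the log2 fold change of Fosl1 was 2.46 and it passed the edgeR test (adjusted p = 0.0392). That alternative was chosen after seeing the data, with 2 mice against 4. It drops RGRN-305 3, the treated mouse inside the vehicle range, so this pass is no support for Fosl1. Without RGRN-305 1 the smallest edgeR adjusted p among the AP-1 genes was 0.655. Fos had a log2 fold change of -1.32 (edgeR adjusted p = 0.552) that rested on Vehicle 3, and without that mouse it was 1.05. Of 20 immediate early genes 2 were higher (Myc and Csrnp1) and 0 lower, with a median of 0.18. This count was 8 without Vehicle 3 (median 0.37), 6 without RGRN-305 3, and 1 without Vehicle 1, 2 or 4 or RGRN-305 2 (medians of 0.08 to 0.12). Myc was at 886 to 1487 in vehicle mice and 1266 to 1807 in RGRN-305 mice, and Csrnp1 at 522 to 726 and 777 to 903. Of 17 feedback inhibitors of ERK signaling 3 were higher and 0 lower, with a median of 0.11, among them the phosphatase genes Dusp7 (0.37 ± 0.13) and Dusp6 (0.44 ± 0.21), and leaving out Vehicle 3 raised this count to 6 higher and the median to 0.22, whereas leaving out Vehicle 4 or RGRN-305 1 lowered the count to 1.

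Among genes of activated epidermis, Sprr1a lay above every vehicle mouse in all 4 treated mice, and Sprr1b and Krt16 in 3. Of 26 cornified envelope and desquamation genes 3 were higher and 0 lower (all genes: 4.18% and 5.36%), with a median of 0.16. Of 16 epidermal keratin genes 1 was higher and 0 lower, with a median of 0.12. Without Vehicle 4, RGRN-305 1 or RGRN-305 4, 2 keratin genes were higher. The summed level of the cornified envelope list was 13610 to 14034 CPM in vehicle mice and 14422 to 15649 in RGRN-305 mice, without overlap. Sprr1a, a small proline-rich precursor of the cornified envelope, was at 637, 594, 627 and 779 in Vehicle 1 to 4 and at 1179, 1662, 862 and 1311 in RGRN-305 1 to 4, without overlap (log2 fold change 0.93 ± 0.24, edgeR adjusted p = 0.395). Sprr1b was at 79.9, 104, 122 and 264 in Vehicle 1 to 4 and at 316, 574, 174 and 336 in RGRN-305 1 to 4. Krt16, a keratin of hyperproliferative epidermis, was at 423, 575, 665 and 1052 in Vehicle 1 to 4 and at 1461, 1766, 803 and 1464 in RGRN-305 1 to 4. RGRN-305 3 was the lowest treated mouse for these genes as well, below Vehicle 4 for Sprr1b and Krt16, whose log2 fold changes were 1.27 ± 0.38 and 1.01 ± 0.31 (edgeR adjusted p = 0.406 for both). Of 20 matrix protease and plasminogen genes 3 were higher and 0 lower, led by the collagenase gene Mmp13 (0 to 10.00 against 1.73 to 38.8) and the stromelysin gene Mmp10 (8.18 to 17.6 against 19.5 to 47.8), both at low counts. The median of this list was 0.10, and without RGRN-305 2 or Vehicle 4 its count was 0 or 1 higher.

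**Figure D3:**
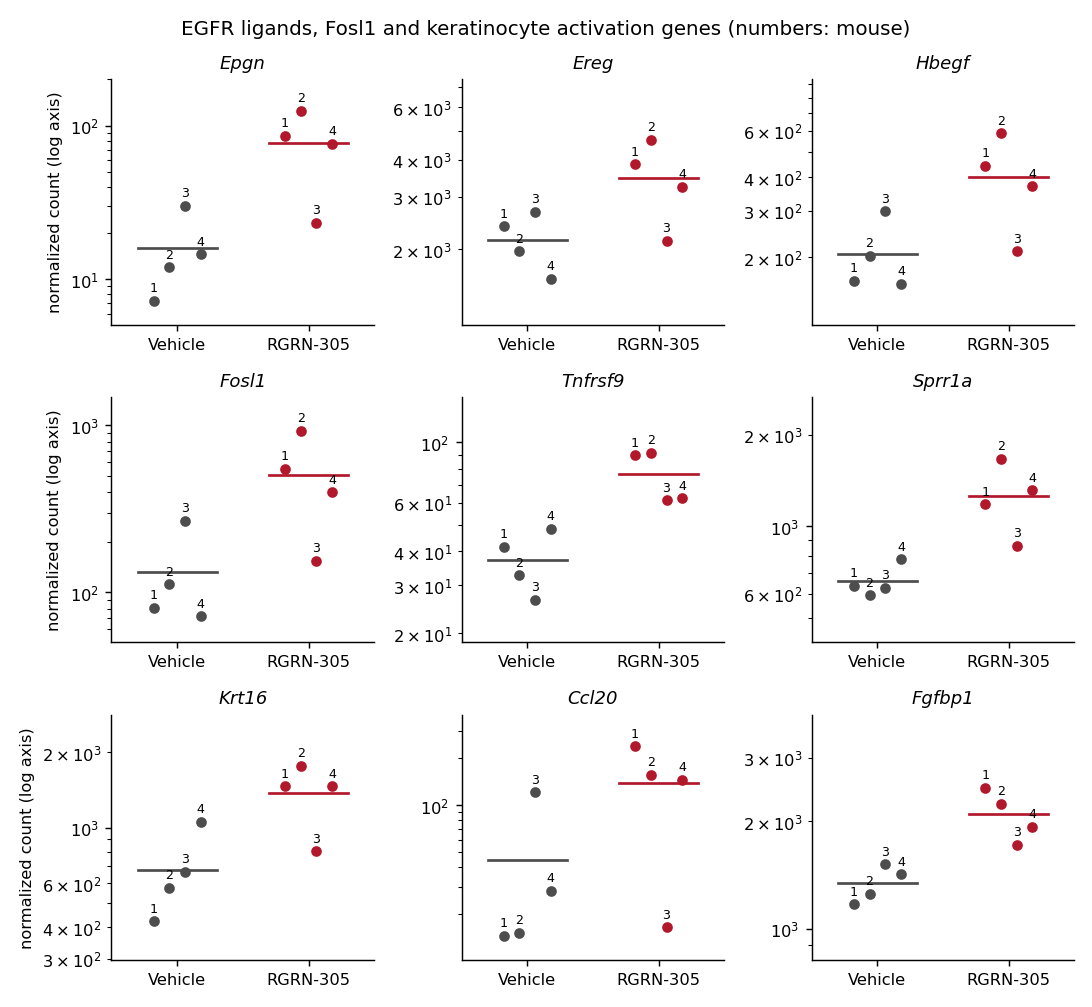
Normalized counts (log axes) of EGFR ligand genes, Fosl1 and genes of activated keratinocytes in each mouse, with horizontal lines at the group means and points numbered by mouse. RGRN-305 1, 2 and 4 lay above the vehicle mice for Epgn, Ereg, Hbegf, Fosl1, Krt16 and Ccl20, while RGRN-305 3 lay among them, and all treated mice lay above for Tnfrsf9, Sprr1a and Fgfbp1.

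Lists of inflammatory mediators held 0 to 3 genes higher and 0 to 2 lower at an unadjusted p under 0.05, where all genes gave 4.18% and 5.36%. Of 28 cytokine genes tested 0 were higher and 2 lower (median log2 fold change 0.01), of 32 chemokine genes 3 were higher and 1 lower (0.13), of 24 NF-kB subunits, regulators and targets 2 were higher and 0 lower (0.14), and of 29 TNF superfamily genes 3 were higher and 2 lower (0.05). By sign alone the NF-kB list leaned up, with 22 of 24 members above 0 (all genes: 48.5%), though 0 of them lay above every vehicle mouse. The cytokines had 15 of 28 above 0, the chemokines 21 of 32 and the TNF superfamily 17 of 29. Without RGRN-305 1 the chemokines had 0 higher and a median of -0.005, and without Vehicle 3, RGRN-305 2 or RGRN-305 3 they had 5 higher. The NF-kB list had 4 higher without RGRN-305 3 and 1 without RGRN-305 1, 2 or 4 or Vehicle 1 or 4. The TNF superfamily had 5 higher without RGRN-305 3 and 4 lower without Vehicle 4, and the cytokines had 0 lower without Vehicle 2 and 2 higher without RGRN-305 3. Tnfrsf9, which encodes the co-stimulatory receptor 4-1BB (chr4:150999019-151030559, plus strand, GRCm39), was at 41.5, 32.6, 26.5 and 48.2 in Vehicle 1 to 4 and at 89.4, 91.6, 61.4 and 62.4 in RGRN-305 1 to 4. All treated mice were above all vehicle mice, and the log2 fold change was 1.02 ± 0.21 (edgeR adjusted p = 0.273, DESeq2 0.00818). Tnfrsf25, the death receptor 3 gene, was at 148, 158, 175 and 161 in Vehicle 1 to 4 and at 71.8, 129, 83.1 and 145 in RGRN-305 1 to 4, also without overlap (-0.58 ± 0.19, edgeR adjusted p = 0.406).

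Ccl20, a chemokine gene of epidermal cells, was at 14.5, 15.2, 121 and 28.2 in Vehicle 1 to 4 and at 239, 157, 16.4 and 146 in RGRN-305 1 to 4. Vehicle 3 and RGRN-305 3 thus crossed, and the log2 fold change was 1.58 ± 0.56 (edgeR adjusted p = 0.430). Ccl24, the eotaxin-2 gene, was at 66.4 to 113 in vehicle mice and 89.1 to 315 in RGRN-305 mice. Ccl3, the macrophage inflammatory protein gene, was at 8.70 to 24.6 in vehicle mice and at 5.85 to 8.32 in RGRN-305 mice, without overlap but at few counts (-1.12 ± 0.48, edgeR adjusted p = 0.479). Tnfaip3, which encodes the NF-kB inhibitor A20, followed the Fosl1 arrangement with only RGRN-305 3 within the vehicle range (0.70 ± 0.24). For Ptgs2, the cyclooxygenase-2 gene (1.15 ± 0.51), Vehicle 3 lay above all treated mice but RGRN-305 2. Il16, a T cell chemoattractant gene, was lower in every RGRN-305 mouse (506 to 544) than in any vehicle mouse (553 to 738), at -0.29 ± 0.11. Of 15 antimicrobial and alarmin genes and 24 interferon-stimulated genes, 0 had an unadjusted p under 0.05, with medians of 0.11 and 0.00, and leaving out 1 mouse gave at most 2 in either list.

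The gene with the smallest edgeR p was Fgfbp1, which encodes a carrier that releases fibroblast growth factors from the matrix (chr5:44136200-44139151, minus strand, GRCm39). It was at 1171, 1253, 1514 and 1420 in Vehicle 1 to 4 and at 2478, 2232, 1718 and 1930 in RGRN-305 1 to 4. No vehicle mouse reached the lowest treated mouse, and the log2 fold change was 0.64 ± 0.13 (edgeR adjusted p = 0.273, DESeq2 0.00704). Hivep3, which encodes a zinc finger protein that binds NF-kB motifs, was at 306, 285, 303 and 283 in Vehicle 1 to 4 and at 399, 747, 434 and 492 in RGRN-305 1 to 4. Pard6g, a cell polarity gene, was at 2170 to 2339 in vehicle mice and 2502 to 2854 in RGRN-305 mice. Both were without overlap, with log2 fold changes of 0.82 ± 0.18 and 0.25 ± 0.06 (edgeR adjusted p = 0.273 and 0.390, DESeq2 0.00866 and 0.0360). The remaining genes called higher by DESeq2 were Rpl36a (0.61), a ribosomal protein gene, and the processed pseudogenes Rpl27-ps1 (1.02), Rpl5-ps2 (0.49), Gm17709 (0.67), Gm6210 (0.72) and Gm9115 (0.71), given here as edgeR log2 fold changes. Rpl27-ps1 was at 39.4, 52.2, 53.9 and 41.8 in Vehicle 1 to 4 and at 118.5, 49.8, 90.0 and 123 in RGRN-305 1 to 4, so that RGRN-305 2 lay inside the vehicle range. Although only uniquely aligned reads had been counted, the level of a processed pseudogene is uncertain where its sequence nearly matches that of its parent gene. Sox7, which encodes an endothelial transcription factor, was the remaining protein-coding gene among the 10 with the smallest p that lay above all vehicle mice (0.44 ± 0.11).

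Among the lower genes, Abca4 had the smallest p. This transporter of retinoids, known mainly from photoreceptors, was at 87.1, 80.5, 65.3 and 75.4 in Vehicle 1 to 4 and at 47.8, 53.8, 43.3 and 41.0 in RGRN-305 1 to 4. P2rx7, which encodes the ATP-gated channel upstream of the inflammasome, was at 479, 463, 478 and 423 in Vehicle 1 to 4 and at 262, 346, 338 and 380 in RGRN-305 1 to 4. Sec16b, a gene of endoplasmic reticulum exit sites, was at 365, 333, 325 and 319 in Vehicle 1 to 4 and at 138, 229, 223 and 270.1 in RGRN-305 1 to 4. None of these groups overlapped, and the log2 fold changes were -0.73 ± 0.16, -0.47 ± 0.11 and -0.64 ± 0.15 (edgeR adjusted p = 0.273, 0.273 and 0.319, DESeq2 0.0486 for each). DESeq2 also called the long non-coding RNA Rian and 1 gene without a matched name lower. Other genes with the smallest p were Tctn2, a gene of the ciliary transition zone (-0.40 ± 0.10), the peptidase gene Dpp7 (-0.39 ± 0.10), the ion exchanger gene Slc9a8 (-0.30 ± 0.08), Hemk1 (-0.56 ± 0.15), Cercam (-0.44 ± 0.12) and Rab36 (-0.64 ± 0.17). For all of them the treated mice lay below every vehicle mouse, which was part of how they were chosen. RGRN-305 1 was the lowest mouse for P2rx7, Sec16b, Tnfrsf25, Dpp7, Cercam, Slc9a8, Hemk1 and Rab36.

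Of the metabolic and stress lists, cholesterol synthesis and uptake had the highest share of genes at an unadjusted p under 0.05. Of its 22 genes 6 were higher and 0 lower (all genes: 4.18% and 5.36%), and the median log2 fold change was 0.12. Cyp51, the lanosterol demethylase gene, was at 3648 to 4326 in vehicle mice and 4572 to 5453 in RGRN-305 mice (0.29 ± 0.11), and Fdft1, the squalene synthase gene, at 1881 to 2195 and 2380 to 2571 (0.24 ± 0.09). Neither overlapped between the groups, and the edgeR adjusted p was 0.430 for both. Leaving out Vehicle 1 or RGRN-305 4 reduced the count to 3 higher. The summed level of the list, 3811 to 4485 CPM in vehicle mice and 4366 to 4626 in RGRN-305 mice, overlapped.

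All 31 proteasome subunit genes had a log2 fold change above 0 (all genes: 48.5%), but by little: the median was 0.10, 3 were higher at an unadjusted p under 0.05, and Psmd11, with the smallest p, was at 1335 to 1426 in vehicle mice and 1426 to 1621 in RGRN-305 mice. This rested in part on RGRN-305 1, whose summed proteasome level was 3570 CPM against 2875 to 3160 in the other 7 mice, and without it 23 of 31 were above 0 and 0 were higher. Without Vehicle 2 the count was also 0, and without RGRN-305 2 it was 6. Of 26 unfolded protein response and ATF4 targets 3 were higher and 0 lower (median 0.07), led by the endoplasmic reticulum factor gene Manf (890 to 1163 against 1180 to 1323), and the count was 0 without Vehicle 1 and 5 without Vehicle 3 or RGRN-305 3. NRF2 targets (21 genes, median 0.11), cell cycle genes (29 genes, -0.08) and co-chaperones had 0 genes at that threshold, and p53 targets had 1 higher and 1 lower of 17 (0.04). Of the NRF2 targets, however, 17 were above 0 and 3 lay above every vehicle mouse (all genes: 2.37%). Their summed level was 1777 to 1835 CPM in vehicle mice and 1840 to 2155 in RGRN-305 mice, without overlap, RGRN-305 1 being highest. The sums of the HSP90 forms, the HSF1 list and the cornified envelope list did not overlap either, while those of the other pathway lists did. For the HSP90 forms the groups nearly touched, at 1624 to 1705 CPM in vehicle mice and 1708 to 1778 in RGRN-305 mice. The gap for the NRF2 targets was also narrow. Whether these sums stay apart under other scalings was not tested. Without RGRN-305 2 there were 3 NRF2 targets higher, and without Vehicle 1 there were 4 cell cycle genes lower.

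Among the pathway lists, circadian clock genes had the largest share of lower genes. Of 18 tested, 4 were lower and 1 higher at an unadjusted p under 0.05 (all genes: 5.36% and 4.18%). Below every vehicle mouse lay 4 and above it 1 (all genes: 2.81% and 2.37%), and the median was -0.13. Per3, a repressor of the clock, was at 2652, 2785, 2517 and 2499 in Vehicle 1 to 4 and at 1442, 2269, 2146 and 2105 in RGRN-305 1 to 4. The groups did not overlap, and the log2 fold change was -0.39 ± 0.13 (edgeR adjusted p = 0.416). The time of day of each sampling is not given in the sources used here, and without RGRN-305 1 the median of the list was -0.04. Without Vehicle 2 the count of lower genes was 2. Pdk4, which encodes a brake on pyruvate oxidation and is a glucocorticoid target, was at 549, 387, 380 and 396 in Vehicle 1 to 4 and at 265, 249, 209 and 238 in RGRN-305 1 to 4. It was the only one of 18 glucocorticoid receptor targets and metallothioneins at an unadjusted p under 0.05 (-0.83 ± 0.28, edgeR adjusted p = 0.416), and the list's median was 0.08. Of 24 Wnt genes 1 was higher and 3 lower (median -0.11), among them the Wnt target Ascl2 (196 to 230 against 133 to 158), and 1 was lower without Vehicle 3 or RGRN-305 2. Of 9 aryl hydrocarbon receptor genes 1, the glucuronosyltransferase gene Ugt1a6a (-0.55 ± 0.20), was lower and 0 were higher (median -0.06).

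**Figure D4:**
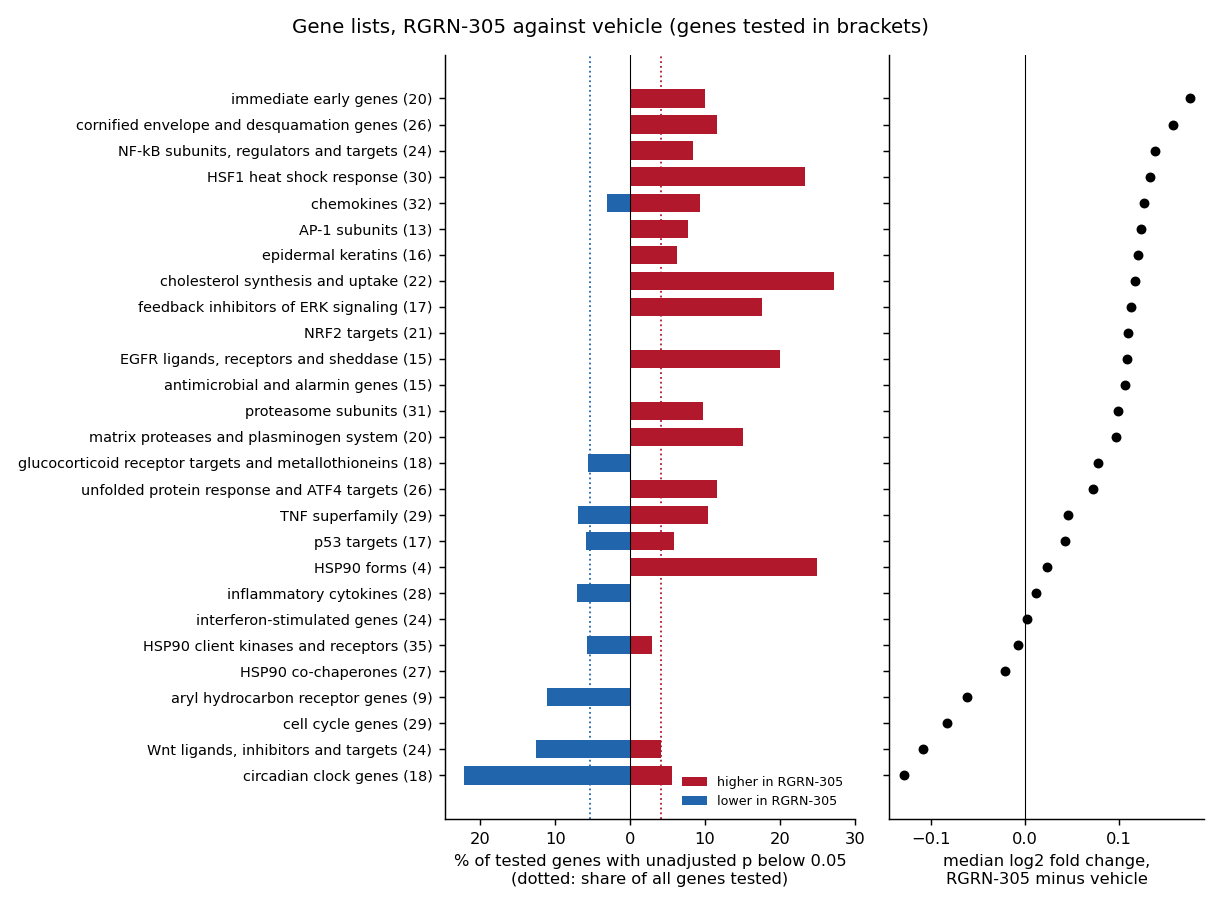
Left, share of tested genes of each pathway list (number in brackets) with an unadjusted edgeR p below 0.05, higher to the right and lower to the left, with dotted lines at the shares over all 18991 genes (4.18% and 5.36%). Right, median log2 fold change of RGRN-305 against vehicle for each pathway list, which runs from -0.13 for circadian clock genes to 0.18 for immediate early genes.

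Of the cell type markers, the summed T cell markers lay above every vehicle mouse in all 4 treated mice and the red blood cell genes in 3, hair follicle markers stood high in 2, and the sums of the other lists overlapped between the groups. In whole ear tissue, more cells of a type and more RNA per cell cannot be told apart. T cell markers had 2 of 8 genes higher and 0 lower (all genes: 4.18% and 5.36%), with a median of 0.07, or -0.01 without Vehicle 4. Their summed level was 43.2 to 46.6 CPM in vehicle mice and 49.4 to 60.7 in RGRN-305 mice. Cd3e, a chain of the T cell receptor complex, was at 163, 160, 166 and 132 in Vehicle 1 to 4 and at 193, 218, 222 and 186 in RGRN-305 1 to 4, without overlap (0.40 ± 0.12, edgeR adjusted p = 0.406). Langerhans and dendritic cell markers had 2 of 8 higher and 0 lower, namely Epcam (2612 to 2962 against 3274 to 3718), which keratinocytes of the hair follicle also express, and the langerin gene Cd207 (357 to 485 against 440 to 676), while their summed level overlapped (1499 to 1686 against 1480 to 1753). All 12 anagen hair follicle markers were above 0 (median 2.82), with a summed level of 7.50 to 10.8 in the other 6 mice, 35.4 in RGRN-305 3 and 73.0 in RGRN-305 4. Red blood cell genes (6, median 0.91, 2 higher) were at 160 to 256 in vehicle mice and at 552, 137, 341 and 510 in RGRN-305 1 to 4, and the count was 0 without RGRN-305 1, RGRN-305 4 or Vehicle 4 and 5 without RGRN-305 2. Melanocyte markers (7 genes, 2 lower, median -0.31) and fibroblast markers (9 genes, 1 lower, -0.21) had 0 members above 0, with overlapping sums (60.3 to 106 against 58.9 to 72.8, and 6559 to 8810 against 5754 to 7115). Melanocyte markers had 5 lower without Vehicle 1 (median -0.48) and 0 without RGRN-305 1 or without Vehicle 3 (median -0.17, with 1 member above 0), and fibroblast markers had 4 lower without RGRN-305 1 and 0 without Vehicle 1, 2 or 3 or RGRN-305 2 or 3.

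The remaining marker lists overlapped in their sums. Keratinocyte markers had 0 of 10 genes at an unadjusted p under 0.05 in either direction, with a median of 0.14. Macrophage (9 genes, median -0.08), endothelial (9, -0.05), mast cell (8, -0.13), Schwann cell (7, -0.01), adipocyte (9, 0.07), skeletal muscle (12, 0.35) and neutrophil markers (6 tested, -0.40) likewise had 0. Skeletal muscle markers had 6 of 12 higher without RGRN-305 3 (median 0.49) and 10 of 12 without RGRN-305 3 and 4, while their median was 0.20 without RGRN-305 1. The neutrophil median was 0.0033 without RGRN-305 3. Sebaceous gland markers had 1 of 9 lower (0.01) and chondrocyte markers 2 of 7 lower (-0.23), or 0 without Vehicle 2. Like the melanocyte and fibroblast lists, the mast cell and chondrocyte lists had 0 members above 0.

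The effect of RGRN-305 without TPA was set beside its effect with TPA (TPA+RGRN-305 against TPA), which shares no library with it. Without TPA 0 genes passed the adjusted p, and with TPA 6264 (33%) were higher and 6193 (32.6%) lower, with 10 mice per group in place of 4. The test of the difference between both effects passed an adjusted p of 0.05 for 9651 genes (50.8%). Of the 793 genes higher without TPA at an unadjusted p under 0.05, 478 (60.3%) were lower with TPA and 62 (7.82%) were higher, and these made up 7.72% of all genes lower and 0.99% of all genes higher with TPA. Of the 1017 lower without TPA, 603 (59.3%) were higher with TPA and 124 (12.2%) were lower, which made up 9.63% and 2.00% of those called with TPA.

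Most of the genes described above were on opposite sides in both settings. Epgn had a log2 fold change of 2.23 without TPA and -2.45 with it, Fosl1 of 1.92 and -2.28, Tnfrsf9 of 1.02 and -1.90, and Sprr1a of 0.93 and -2.47. Among the chaperone genes, Hspa8 was at 0.43 and -0.83, Hsp90aa1 at 0.31 and -0.996, Dnajb1 at 0.31 and -1.45 and Dnaja1 at 0.34 and -0.67. For each of these genes the difference passed the adjusted p of 0.05. Most of them were named for their values without TPA. Those values enter the difference, so the choice can enlarge it. The inducible HSP70 genes were an exception: Hspa1a was at 0.36 without TPA and 0.32 with it, and Hspa1b at 0.36 and 0.42, and their differences did not pass (-0.04 and 0.06, edgeR adjusted p = 0.783 and 0.671). Fkbp4 was positive in both settings (0.14 and 0.37). Other genes on the same side were Pard6g (0.25 and 0.22), Cd3e (0.40 and 0.43), Abca4 (-0.73 and -0.87), Rian (-0.51 and -0.47), Il16 (-0.29 and -0.34), Pdk4 (-0.83 and -1.40) and Ccl3 (-1.12 and -3.84). For these, the value with TPA passed an adjusted p of 0.05, and the difference between the settings passed only for Ccl3 and Fkbp4 among those named here.

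**Figure D5:**
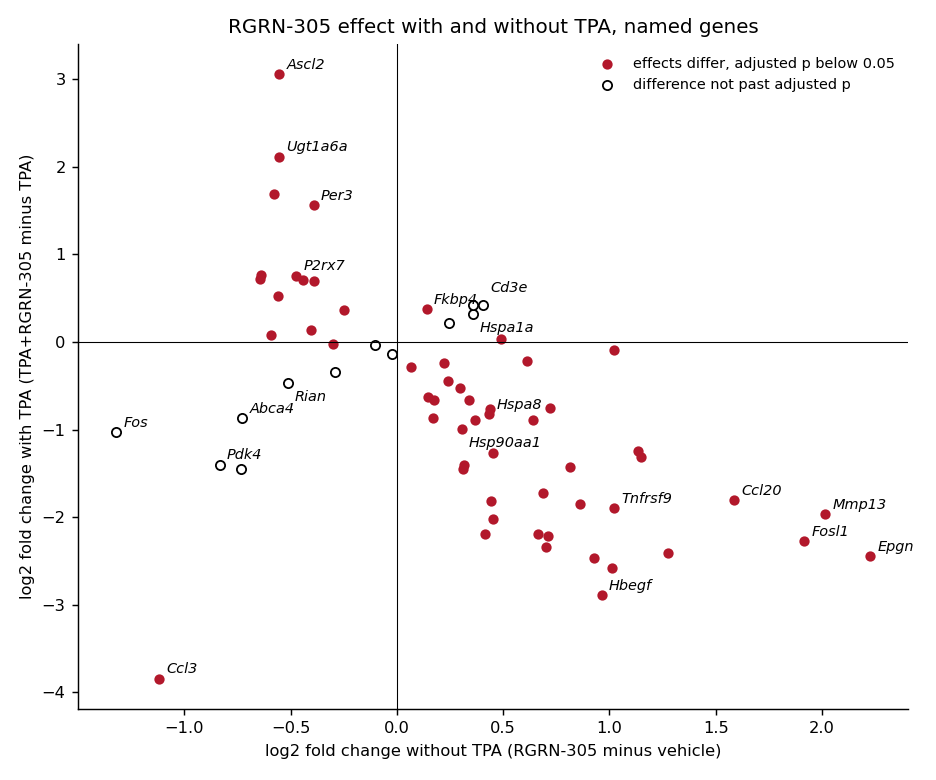
Log2 fold change of RGRN-305 without TPA (horizontal axis, 4 against 4 mice) and with TPA (vertical axis, 10 against 10) for the named genes, except Krt71 and 2 genes named only for their behaviour when libraries were left out. Filled points are genes whose effects differed at an adjusted p below 0.05, which lie mostly in opposite quadrants, while Hspa1a, Hspa1b, Pard6g, Cd3e, Abca4, Rian and Pdk4 lie in the same quadrant.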

How the data were processed

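Gene counts per ear sample were deposited by the authors as raw counts, from strand-specific libraries, for which the submitters' processing notes name GRCm39 and Subread 2.10.3. The authors counted only uniquely aligned, unambiguous reads. Names and coordinates came from GENCODE M39 (54749 of 55414 identifiers matched, and the 665 unmatched held 0.0567% of the counts). Counts were filtered on low values (minimum count 10, 18991 genes kept), scaled by TMM and fitted over all 28 libraries with edgeR 4.0.16 (quasi-likelihood, R 4.3.3), which gave log2 fold changes with standard errors and Benjamini-Hochberg adjusted p-values. Standard errors were recovered from the F statistic. Replicates are separate mice. Alternatives were DESeq2 1.42.0, limma 3.58.1 (voom with sample weights), other scalings, no filter, fewer libraries and a replicate block. The fit was tested on simulated data. Genes were named by rule: HSP90 forms, genes the study names for this comparison (Rpl27-ps1, Tnfrsf9, Fosl1 and Epgn), DESeq2 calls, the 10 smallest p in each direction among non-overlapping protein-coding genes with mean count above 50, and the leading 3 of each list. Some genes that the rule takes are not reported here. Members and lists were chosen with earlier results of these data known. Hspa4, Dnaja1, Dnajb1, Dnajb4, Krt71, Meg3, Mirg, Lgals4 and Anks3 fell outside the rule and were named after their values were seen, as was the list of ribosomal protein genes.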

Additional observations from a re-analysis of the deposited data

Results flagged for a closer look

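In 9 of 146 groups of 4 mice examined, 1 mouse lay far from the others, and chance gives about 1 in 20. Vehicle 3 was high for Fos (10544 normalized counts), Dusp6 (1017) and Ccl20 (121). Vehicle 1 was low for Hsp90aa1 (913) and high for Pdk4 (549), and Vehicle 4 was low for Cd3e (132). RGRN-305 2 was high for Csrnp1 (903) and Mmp10 (47.8), and RGRN-305 1 was high on the first principal component (26.7).

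For 58 of the named genes, the effect of RGRN-305 with TPA differed from that without TPA at an edgeR adjusted p under 0.05. Over all genes tested the share was 50.8%. Most named genes were chosen by their values without TPA, which enter this difference and can enlarge it. Values here are the log2 fold change with TPA minus that without. Among chaperones the difference was -1.30 for Hsp90aa1, -0.35 for Hsp90ab1, -1.26 for Hspa8, -1.0 for Dnaja1, -1.76 for Dnajb1, -0.84 for Hspa4, -1.04 for Dnajb4 and 0.23 for Fkbp4. Among EGFR ligands, AP-1, immediate early and ERK feedback genes it was -4.67 for Epgn, -2.41 for Ereg, -3.86 for Hbegf, -4.19 for Fosl1, -1.72 for Myc, -2.60 for Csrnp1, -1.25 for Dusp7 and -2.25 for Dusp6. For genes of activated epidermis and proteases it was -3.39 for Sprr1a, -3.68 for Sprr1b, -3.59 for Krt16, -3.98 for Mmp13 and -2.38 for Mmp10. For inflammatory genes it was -2.92 for Tnfrsf9, 2.27 for Tnfrsf25, -3.39 for Ccl20, -2.71 for Ccl24, -2.73 for Ccl3, -3.04 for Tnfaip3 and -2.46 for Ptgs2.

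In the same sense, the difference was -1.53 for Fgfbp1, -2.25 for Hivep3, -1.20 for Sox7, -0.83 for Rpl36a, -1.11 for Rpl27-ps1, -0.46 for Rpl5-ps2, -2.86 for Gm17709, -1.47 for Gm6210 and -2.92 for Gm9115. For genes that were lower without TPA it was 1.23 for P2rx7, 1.40 for Sec16b, 0.54 for Tctn2, 1.09 for Hemk1, 1.09 for Dpp7, 1.15 for Cercam, 0.27 for Slc9a8 and 1.36 for Rab36. It was -0.68 for Fdft1, -0.82 for Cyp51, -0.46 for Manf, -0.77 for Psmd11, 1.95 for Per3, 3.61 for Ascl2, 2.67 for Ugt1a6a and 0.62 for Araf. It was -1.71 for Epcam, -2.47 for Cd207, 0.68 for Meg3, 1.43 for Lgals4 and 1.05 for Anks3.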

How the results depend on the processing

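No setting that kept all 8 mice gave a gene past the adjusted p with edgeR or limma-voom, and leaving out any single mouse gave 0 as well. DESeq2 called 19 genes, 4 of them past the fold and level limits. Leaving out both RGRN-305 mice with hair follicle transcripts (an alternative chosen after seeing the data, 2 mice against 4) gave 5 genes (Fosl1, Tnfrsf9, Fgfbp1, Lgals4 and Anks3), 2 of them past those limits, with 1640 genes lower at an unadjusted p under 0.05 and 1915 above and 2185 below every vehicle mouse. Leaving out RGRN-305 1 and Vehicle 3 together, also chosen after seeing the data, gave 0 genes, with 1327 above and 1499 below. Without a low-count filter, 1469 genes were higher at an unadjusted p under 0.05, as more genes were tested. Leaving out 1 mouse at a time gave 559 to 995 higher and 695 to 1210 lower, and 613 to 1004 genes above and 758 to 1026 below every vehicle mouse, since fewer mice overlap less. The first component difference of 11.9 ranged from 7.95 to 15.2 when 1 mouse was left out and passed 0.05 only without RGRN-305 3 (15.2, exact permutation p = 0.0286). Deviations of same-numbered mice from their group means had correlations of -0.07 to 0.09, within the -0.141 to 0.158 of differently numbered mice. With 4 mice per group these values cannot show whether the numbers follow the 2 experiments. With the replicate block, edgeR called 0 genes, with 683 higher and 933 lower at an unadjusted p under 0.05, or 696 and 743 in the 8 libraries alone.

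Of 71 named genes, 68 kept their sign under every alternative. Many were named for a small p or for groups that do not overlap. For the latter, leaving out mice could hardly turn the sign, so this count is no test of them. Hsp90b1 ranged from -0.085 to 0.040 when 1 mouse was left out. Fos ranged from -1.70 to 1.05, the latter without Vehicle 3, and was 0.37 with limma-voom, 0.43 with the block in the 8 libraries and 1.16 without RGRN-305 1 and Vehicle 3. Krt71 had a fitted value of -4.07 without the RGRN-305 mice with hair follicle transcripts, where both remaining treated mice were at 0 counts, so that this value is no bound. The cause of the Hsp90b1 change was not tested. With 4 mice per group, log2 differences below about 0.22 lay within the median 95% interval.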

Other observations

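Ribosomal protein genes, a group chosen after its values were seen, had a larger share of genes at an unadjusted p under 0.05 than any list above. Of 77 protein-coding members tested, 31 were higher and 0 lower at an unadjusted p under 0.05, 72 had a log2 fold change above 0, and the median was 0.22. Their summed normalized counts were 183400, 194200, 227200 and 218800 in Vehicle 1 to 4 and 261300, 197800, 239500 and 218600 in RGRN-305 1 to 4, so that the groups overlapped. RGRN-305 1 was the highest of the 8 mice for 38 of the 77 genes, and 4 of 77 lay above every vehicle mouse. Processed pseudogenes of these genes had a similar median (0.20) but a smaller share at that threshold (144 tested, 22 higher and 0 lower). RGRN-305 1 was the highest mouse for 98 of the 144.

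Rian, Meg3 and Mirg, neighbouring long non-coding RNAs of an imprinted region on chromosome 12 expressed from the maternal chromosome, were lower in all treated mice. Meg3 and Mirg were named after their values were seen, and other transcripts of the region are not described here. Rian was at 427, 520, 514 and 484 normalized counts in Vehicle 1 to 4 and at 283, 361, 332 and 384 in RGRN-305 1 to 4 (log2 fold change -0.51 ± 0.12, edgeR adjusted p = 0.273). Meg3 was at 1584, 1805, 1783 and 1550 in Vehicle 1 to 4 and at 556, 1228, 1142 and 1522 in RGRN-305 1 to 4. Mirg was at 41.5, 22.8, 26.5 and 29.99 in Vehicle 1 to 4 and at 17.7, 20.9, 18.2 and 15.6 in RGRN-305 1 to 4. No group overlapped, with log2 fold changes of -0.59 ± 0.17 for Meg3 and -0.74 ± 0.27 for Mirg (edgeR adjusted p = 0.398 and 0.430). RGRN-305 1, which had the lowest long non-coding share, was lowest for Rian and Meg3 but not for Mirg, and the part of that share in these values was not tested. With TPA, RGRN-305 left Rian at -0.47, Mirg at -1.45 and Meg3 at 0.08.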
